A study of Homo sapiens with 8 samples.

Results

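The kinetochore is the protein machine that builds on the centromere of each chromosome and ties it to the spindle. At its base, nucleosomes with the histone H3 variant CENP-A carry the constitutive centromere-associated network, and on this network the KNL1, MIS12 and NDC80 complexes assemble and grip microtubules. Most genes of the outer kinetochore are transcribed mainly in G2 and M phase, so their RNA is known to be abundant in dividing cells, as in this fast-growing cancer line. The 37 genes described here were taken by symbol from lists of the CENP-A loading factors, the constitutive network, the KNL1, MIS12 and NDC80 complexes, the SKA complex, the corona, the spindle checkpoint and the shugoshins. All 37 were found among the 17649 genes of the table, and all 37 were among the 13047 expressed genes, which here means genes that averaged 1 CPM (reads of a gene, scaled to the depth of its library) or more over the 8 libraries.

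The cells were MDA-MB-231, an established human breast cancer line that lacks the estrogen receptor. RNA was sequenced from 4 control libraries, to whose cells PBS had been added, and from 4 libraries of cells that received 1 μM CML (carboxymethyllysine, an adduct that sugars and their breakdown products leave on lysine) for 48 hours. Per the study's methods, both groups grew in low glucose medium. The comparison asked how the transcriptome of this line differs with CML. The design holds 1 cell line, 1 dose and 1 time, and no label says that the 4 replicates of a group came from separate cultures, so p-values measure only the spread between these libraries.

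The deposited CPM values came from about 16161803 to 18954733 reads per library, as estimated from the CPM value of 1 read (0.0535 to 0.0622). Markers of the line were read as a check of the label. VIM averaged 4068 CPM, MSN 1381 CPM and EGFR 923 CPM in the control libraries. Of the luminal and epithelial markers listed as absent or low, CDH1 averaged 0.74 CPM and PGR 0.0285 CPM, but EPCAM averaged 14.2 CPM, ERBB3 7.26 CPM and GATA3 4.96 CPM. ESR1 was not analysed here. Control replicate 4 stood apart from the other 3 control libraries, with more estimated reads and higher values for many of the members, and its values are given beside the results that rest on it. No 2 libraries of a group agreed within sampling noise.

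With CML, 35 of the 37 genes had a higher mean than in the controls and 2 had a lower one, CENPT and NSL1. The median log2 fold change of the 37 was 0.15, with a range from -0.10 to 0.36, and the median over all genes and over the expressed genes was 0.01. Of the expressed genes, 58.8% had a fold change above 0, a share that was 47.1% with libraries centred on their median and 50.1% with quantile normalization, where 34 and 35 of the 37 members stayed higher. Fold changes were taken after adding 1 to the CPM value, which shrinks those of genes with low CPM. In bulk RNA, more cells that express a gene and more of its RNA per cell cannot be told apart.

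NDC80 and CENPQ rose at the false discovery rate of 0.3 that the study used for this experiment (limma, Benjamini-Hochberg adjustment over all genes), and no member fell. By the same test, 0.674% of all genes rose and 0.221% fell, and 0.828% of the expressed genes rose. At 0.05 no gene of the table passed, and 841 genes were higher and 511 lower at an unadjusted p under 0.05. At that unadjusted threshold, 17 members were higher (45.9% of the 37) and 0 were lower, beside 5.65% and 2.64% of the expressed genes. Without control replicate 4 the members higher at that threshold numbered 23, beside 9.83% of the expressed genes, and with libraries centred on their median 14, beside 3.23%. In 11 members every CML library lay above every control library (29.7% of the 37), where 3.04% of the expressed genes did so. In 0 members did every CML library lie below every control library, beside 1.3% of the expressed genes, and in the other 26 the groups overlapped.

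**Figure D1:**
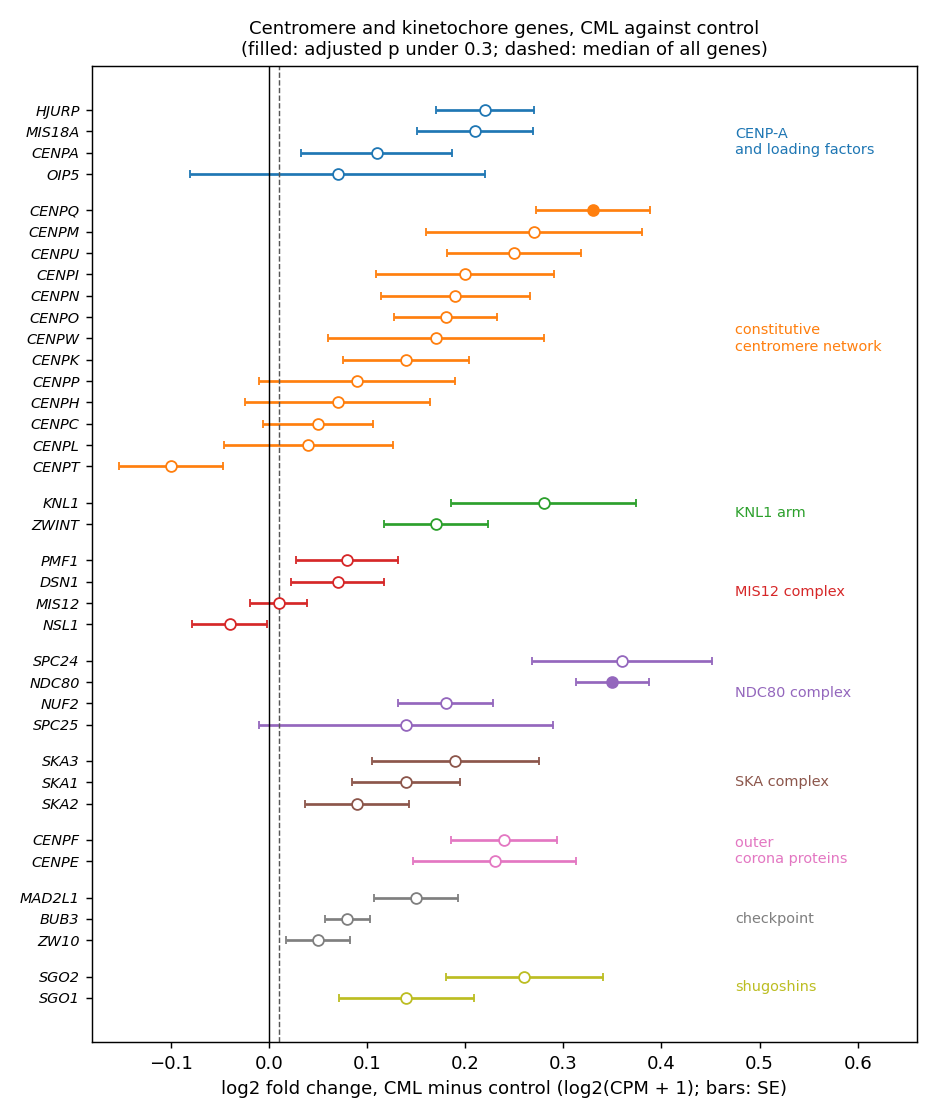
Log2 fold change of each of the 37 genes, CML minus control, on the log2(CPM + 1) scale (x axis), with genes in rows grouped and coloured by role. Points are estimates, bars are standard errors (n = 4 libraries per group), filled points mark an adjusted p under 0.3 and the dashed line marks the median of all genes, 0.01. The NDC80 complex and the KNL1 arm lie to the right of the MIS12 complex, and only CENPT and NSL1 lie below 0.

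The NDC80 complex, a rod of 4 proteins that grips the microtubule, carried the member with the smallest p. All 4 of its genes had a higher mean with CML (median log2 fold change 0.27), 1 rose, and in 3 the groups did not overlap. Of the expressed genes, 0.828% rose, 58.8% had a fold change above 0, and in 3.04% every CML library lay above every control library. These shares also stand beside the counts of the other gene groups below. NDC80 itself, which binds the microtubule and gives the complex its name, lies on chromosome 18 (GRCh38.p14, 2571557 to 2616635). It measured 19.9, 21.7, 19.8 and 21 CPM in control replicates 1 to 4 and 26.3, 27.3, 25.7 and 26.6 CPM in CML replicates 1 to 4. The lowest CML library lay above the highest control library, by more than the spread within either group. The mean was 20.6 ± 0.917 CPM (SD, n = 4) in the controls and 26.5 ± 0.67 CPM (SD, n = 4) with CML, which was 28.6% higher. The log2 fold change was 0.35 (SE 0.037, adjusted p = 0.0802 by limma with Benjamini-Hochberg adjustment), and its p ranked 6 among the 17649 genes. NDC80 passed the threshold in each of the 8 fits that left out 1 library, with an adjusted p from 0.0757 to 0.226.

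NUF2 is the partner that forms the microtubule-binding head with NDC80. Its values were 17.1, 18.6, 19.1 and 19.4 CPM in the controls and 20.1, 22.1, 21.2 and 21.2 CPM with CML. The groups did not overlap, although the gap between them was narrow. The log2 fold change of 0.18 (SE 0.048) missed the threshold (limma, adjusted p = 0.39). NDC80 and NUF2 stand in the cell as partners, and their control levels per kilobase of transcript were close, at 9.69 and 9.43 CPM per kb. The log2 ratio of NDC80 to NUF2 was 0.22, 0.23, 0.05 and 0.12 in the controls and 0.39, 0.31, 0.28 and 0.33 with CML. All CML libraries lay above all control libraries, and the mean ratio differed by 0.17 on the log2 scale (exact permutation test, 2-sided, p = 0.0286, the smallest that 4 against 4 libraries can give, or 0.114 after adjustment over the 4 pairs of partners compared, which were chosen after the values were seen). For SPC24 against SPC25 the ratio differed by 0.25 (exact permutation p = 0.314), for KNL1 against ZWINT by 0.11 (exact permutation p = 0.371) and for CENPA against HJURP by -0.10 (exact permutation p = 0.2).

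SPC24 and SPC25 form the other end of the rod, which docks on the inner kinetochore. SPC24 measured 4.05, 3.67, 3.45 and 3.42 CPM in the controls and 5.85, 4.28, 5 and 4.73 CPM with CML. The CML values spread more than the control values and did not overlap them. Its log2 fold change of 0.36 (SE 0.092) was close to that of NDC80 but missed the threshold (limma, adjusted p = 0.385), and it rested on 57 to 101 reads per library. SPC25 rested on 33 to 61 reads, with group means of 2.69 and 3.02 CPM that overlapped. Per kilobase, SPC24 and SPC25 stood at 1.59 and 2.01 CPM per kb in the controls, below NDC80 and NUF2.

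**Figure D2:**
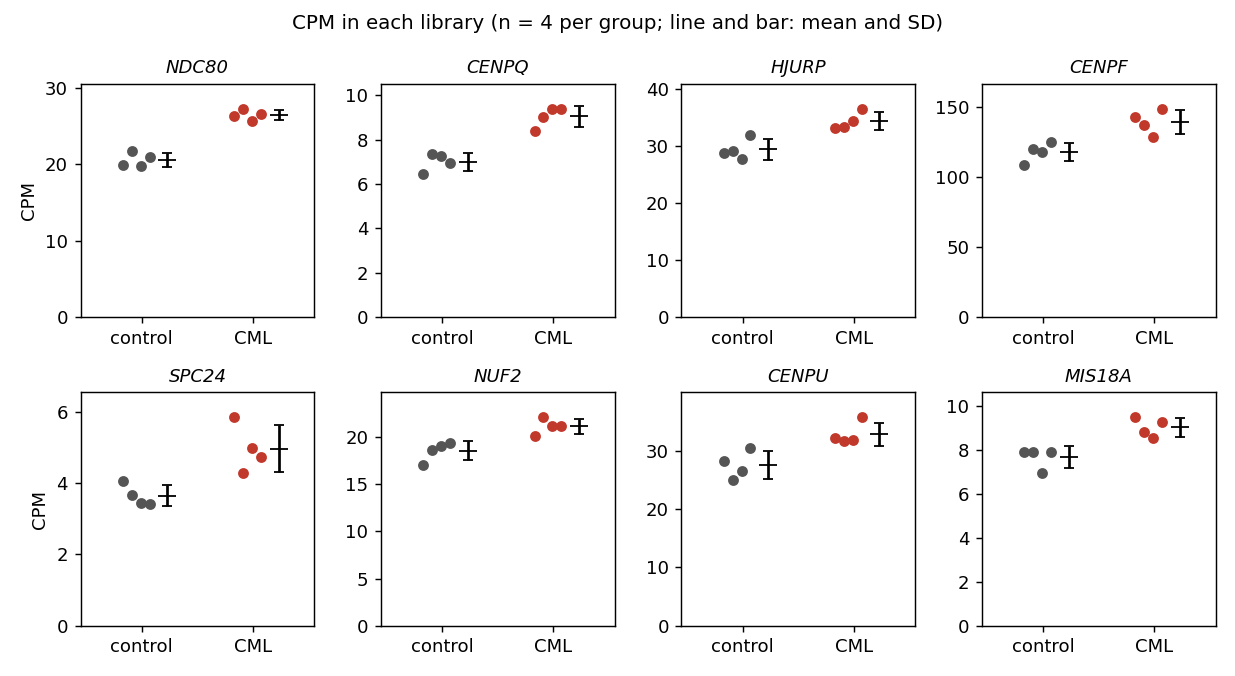
CPM (y axis, from 0) of 8 genes in each library, with control libraries in gray and CML libraries in red. Lines and bars to the right of the points are the mean and SD (n = 4). The 8 genes are the members with the smallest p, and in all 8 the lowest CML library lies above the highest control library. This holds for 11 of the 37 members, beside 3.04% of the expressed genes.

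The promoters of the 4 genes of the NDC80 complex and of CENPQ are shown because these are the coupler subunits and the members that rose. Each line gives 95 bases before to 25 after the annotated start (RefSeq, GRCh38.p14), read 5′ to 3′ along the gene. Capitals mark matches on either strand to the letters searched, namely the cell cycle homology elements TTTGAA and TTTAAA, the CCAAT box, and TTCCCGC and TTGGCGC, which are forms of the E2F site. The positions are chr18:2571462-2571581 on the + strand for NDC80, chr1:163321859-163321978 on the + strand for NUF2, chr19:11155758-11155877 on the - strand for SPC24, chr2:168890406-168890525 on the - strand for SPC25 and chr6:49463275-49463394 on the + strand for CENPQ.
NDC80: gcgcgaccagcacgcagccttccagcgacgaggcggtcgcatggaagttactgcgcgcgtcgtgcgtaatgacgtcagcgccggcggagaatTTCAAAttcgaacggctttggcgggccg
NUF2: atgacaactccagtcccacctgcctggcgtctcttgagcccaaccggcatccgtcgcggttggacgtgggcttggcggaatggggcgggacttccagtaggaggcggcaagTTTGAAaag
SPC24: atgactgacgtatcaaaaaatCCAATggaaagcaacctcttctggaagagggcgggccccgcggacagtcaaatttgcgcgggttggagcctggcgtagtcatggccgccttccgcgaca
SPC25: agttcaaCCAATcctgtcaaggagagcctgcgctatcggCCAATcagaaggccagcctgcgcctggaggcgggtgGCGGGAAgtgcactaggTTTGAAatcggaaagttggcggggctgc
CENPQ: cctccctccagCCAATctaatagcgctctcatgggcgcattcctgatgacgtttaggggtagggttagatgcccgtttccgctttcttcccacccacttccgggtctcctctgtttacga

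The element TTTGAA lay at the start itself in NDC80 and in SPC25 (first base at -3 in both, on the reverse strand in NDC80), and just after it in NUF2 (first base at 17). SPC24 and CENPQ held a CCAAT box and no TTTGAA. Promoters were found for 31 of the 37 genes, and the windows searched ran from 250 bases before to 50 after the start. TTTGAA stood in 14 of the 31 (45.2%), beside 18.2% of all 27305 genes with a RefSeq promoter and 13.6% of the 9815 expressed genes among them, where a gene counted if any of its promoters held the word. CCAAT stood in 21 of the 31 (67.7%), beside 39.7% and 43.8% of the same genes. TTCCCGC stood in 22.6%, beside 7.82% and 12.9%, TTGGCGC in 16.1%, beside 3.66% and 6.21%, and TTTAAA in 12.9%, beside 14.5% and 10.7%. A match is a run of letters and not a measured site, and none of the 5 words searched is contained in another. BUB3, MIS18A, CENPH, KNL1, CENPM and CENPL had no entry.

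The constitutive centromere network, which stays on the centromere through the cell cycle, gave 13 of the members, of which 12 had a higher mean with CML and 1 rose (median log2 fold change 0.17). CENPQ, a subunit of the complex that CENPO, CENPP, CENPQ, CENPU and ITGB3BP form, lies on chromosome 6 (GRCh38.p14, 49463370 to 49493107). It measured 6.44, 7.33, 7.26 and 6.95 CPM in the controls and 8.39, 9.04, 9.39 and 9.4 CPM with CML. Every CML library exceeded every control library. The means were 7 ± 0.405 CPM and 9.05 ± 0.47 CPM (SD, n = 4 each), a difference of 29.4% and 0.33 on the log2 scale (SE 0.058, limma adjusted p = 0.186). CENPQ passed the threshold in 2 of the 8 fits that left out 1 library. It missed it without control replicate 1, 2 or 3 or without CML replicate 2, 3 or 4 (adjusted p from 0.31 to 0.449), and with libraries centred on their median (adjusted p = 0.357).

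Of the partners of CENPQ, CENPU, which recruits the kinase PLK1, measured 28.2, 24.9, 26.5 and 30.5 CPM in the controls and 32.1, 31.6, 31.8 and 35.7 CPM with CML. The groups did not overlap, and replicate 4 was the highest library of each. This was a log2 fold change of 0.25 (SE 0.068, limma adjusted p = 0.416), and CENPU passed when the expressed genes alone were tested (adjusted p = 0.254) and without control replicate 4 (adjusted p = 0.213). CENPU shares 14.93% of its exon bases with PRIMPOL on the opposite strand. CENPO did not overlap either, at 22.8 and 26 CPM (log2 fold change 0.18, limma adjusted p = 0.444), and shares 26.97% of its exon bases with ADCY3 on the opposite strand. CENPP had the lowest level per kilobase of the 37, at 0.745 CPM per kb in the controls. It measured 5.43, 5.44, 6.89 and 6.95 CPM in the controls and 6.89, 7.17, 6.03 and 6.28 CPM with CML. Control replicates 3 and 4 lay above CML replicates 3 and 4, so the groups were mixed (log2 fold change 0.09, SE 0.1, limma adjusted p = 0.931). CENPP shares 39.94% of its exon bases with IPPK on the opposite strand. ITGB3BP, the partner that is no member, had 10.2 CPM in the controls and 10.3 CPM with CML (log2 fold change 0.02), with overlapping groups.

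The network's other 9 genes ranged from -0.10 to 0.27 on the log2 scale, and their groups overlapped. CENPT, whose tail recruits the NDC80 complex, was the one with a lower mean, at 21.6 ± 1.54 CPM in the controls and 20.1 ± 0.72 CPM with CML (SD, n = 4 each; log2 fold change -0.10, SE 0.053, limma adjusted p = 0.77). CENPW, its histone fold partner, had 2.83 and 3.33 CPM (log2 fold change 0.17, 42 to 67 reads). CENPC, which binds the CENP-A nucleosome, had 16.4 and 17 CPM (0.05). CENPN, which reads CENP-A as well, had 15.8 and 18.2 CPM (0.19), and CENPL, its partner, 12.9 and 13.3 CPM (0.04). CENPH, CENPI and CENPK, which form 1 subcomplex with CENPM, had log2 fold changes of 0.07, 0.20 and 0.14, and CENPM had 0.27 on 28 to 50 reads. The difference of these members from CENPQ was not tested.

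CENP-A is the histone that marks the centromere, and HJURP is the chaperone that deposits it. All 4 genes of this group had a higher mean with CML (median log2 fold change 0.16), and none passed the threshold. HJURP measured 28.8, 29.1, 27.8 and 32 CPM in the controls and 33.2, 33.4, 34.5 and 36.6 CPM with CML. The groups did not overlap, but control replicate 4 came close to the lowest CML library. HJURP differed by 0.22 on the log2 scale (SE 0.05), and the adjusted p of 0.315 lay just above the threshold (limma). HJURP passed it in 1 of the 8 fits that left out 1 library, without control replicate 4, and when the expressed genes alone were tested (limma, adjusted p = 0.234).

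MIS18A, part of the complex that licenses the centromere for new CENP-A, measured 7.93, 7.92, 6.95 and 7.92 CPM in the controls and 9.49, 8.83, 8.53 and 9.27 CPM with CML. Control replicate 3 was the low library, and the other 3 controls were nearly equal. It differed by 0.21 on the log2 scale (SE 0.059, limma adjusted p = 0.422). CENPA itself had 9.04 ± 0.879 CPM and 9.83 ± 0.557 CPM (SD, n = 4 each) with overlapping groups (log2 fold change 0.11, limma adjusted p = 0.845). Its reads were whole numbers in 3 of the 8 libraries, and it shares 138 exon bases with SLC35F6 on the same strand. OIP5, the other subunit of the MIS18 complex, had 1.51 and 1.64 CPM on 17 to 34 reads. Of the exon bases of OIP5, 63.2% lie under OIP5-AS1 on the opposite strand, which had 168 CPM in the controls. Whether this alters the value of OIP5 was not tested, and with so few reads that value is uncertain.

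KNL1, the scaffold of the outer kinetochore and docking site of the checkpoint proteins, had 18.8 ± 2.29 CPM in the controls and 23 ± 1.74 CPM with CML (SD, n = 4 each). ZWINT, which binds KNL1, had 29 ± 1.23 and 32.8 ± 2.1 CPM. Control replicate 4, at 21.7 CPM, lay above the lowest CML library of KNL1, at 20.6 CPM, and in ZWINT control replicate 3 lay above CML replicate 1. The log2 fold changes were 0.28 and 0.17, with limma adjusted p of 0.523 and 0.483.

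The MIS12 complex, the bridge from the centromere network to NDC80, gave the lowest median of the 9 groups (0.04), and in all 4 of its genes the groups overlapped. MIS12 measured 81.2, 86.3, 82.4 and 86.1 CPM in the controls and 83.4, 83.1, 84.3 and 88.5 CPM with CML. The values of the groups were interleaved. The log2 fold change was 0.01 (SE 0.029, 95% interval from -0.05 to 0.08, limma adjusted p = 0.989), and its sign turned under some alternatives. DSN1 had 0.07, PMF1 0.08 and NSL1 -0.04. PMF1 had no whole reads in any of the 8 libraries and shares 23.29% of its exon bases with PMF1-BGLAP on the same strand, so the counting may have split its reads.

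The SKA complex, which helps NDC80 follow the shrinking microtubule end, had higher means in all 3 genes, with overlapping groups. SKA1 had 9.35 and 10.4 CPM (log2 fold change 0.14), SKA2 54.1 and 57.5 CPM (0.09) and SKA3 12.6 and 14.6 CPM (0.19). In SKA3 the highest library was CML replicate 3, at 17.2 CPM. None passed the threshold (limma, adjusted p from 0.62 to 0.8).

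The outer corona gave the 2 motor-linked proteins. CENPF, a large protein that binds microtubules and dynein regulators, measured 109, 120, 118 and 125 CPM in the controls and 143, 137, 129 and 149 CPM with CML. The lowest CML library, replicate 3, lay above the highest control library, replicate 4. The log2 fold change was 0.24 (SE 0.054, limma adjusted p = 0.323, or 0.0677 when the expressed genes alone were tested). With 1836 to 2558 reads per library and no exon shared with another gene, CENPF was among the more deeply covered members. CENPE, a kinesin that carries chromosomes to the spindle equator, had 35.5, 37.7, 41.2 and 46.2 CPM in the controls and 48.7, 45.3, 45 and 50 CPM with CML. Its groups overlapped because of control replicate 4 (log2 fold change 0.23, SE 0.083, limma adjusted p = 0.553).

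Of the spindle checkpoint genes, MAD2L1, whose protein holds CDC20 inactive, had 29.6 ± 1.68 and 33 ± 0.939 CPM (SD, n = 4 each), and BUB3, which brings BUB1 to KNL1, had 249 ± 7.73 and 263 ± 2.43 CPM. In both the groups did not overlap, and neither passed the threshold (log2 fold changes 0.15 and 0.08, limma adjusted p of 0.426 and 0.465). ZW10, which recruits dynein, had 60.9 and 63.1 CPM (0.05). The shugoshins guard centromeric cohesin. SGO1 had 9.05 and 10.1 CPM (0.14) and SGO2 15.6 and 18.9 CPM (0.26), with overlapping groups and limma adjusted p of 0.725 and 0.486.

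Levels differed far more between members than between the groups. Per kilobase of transcript, the control means ran from 0.745 CPM per kb for CENPP to 33.6 CPM per kb for MIS12. BUB3 followed MIS12 at 32.4 CPM per kb, and with CML their order turned (34.1 for BUB3 and 33.9 for MIS12), so these neighbours could not be ranked. ZW10, PMF1 and SKA2 came next at 21.2, 19.7 and 19.3 CPM per kb. MIS12 shares 9.534% of its exon bases with DERL2 on the opposite strand, and the effect of this was not tested. NSL1, at 1.45 CPM per kb, has an annotated transcript of 13115 bases. Each level per kilobase rests on the length of the transcript chosen for that gene, and other transcripts were not tried. The spread between libraries of a group ranged over the members from an SD of 0.0328 to 0.22 on the log2(CPM + 1) scale, with a median of 0.0824.

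**Figure D3:**
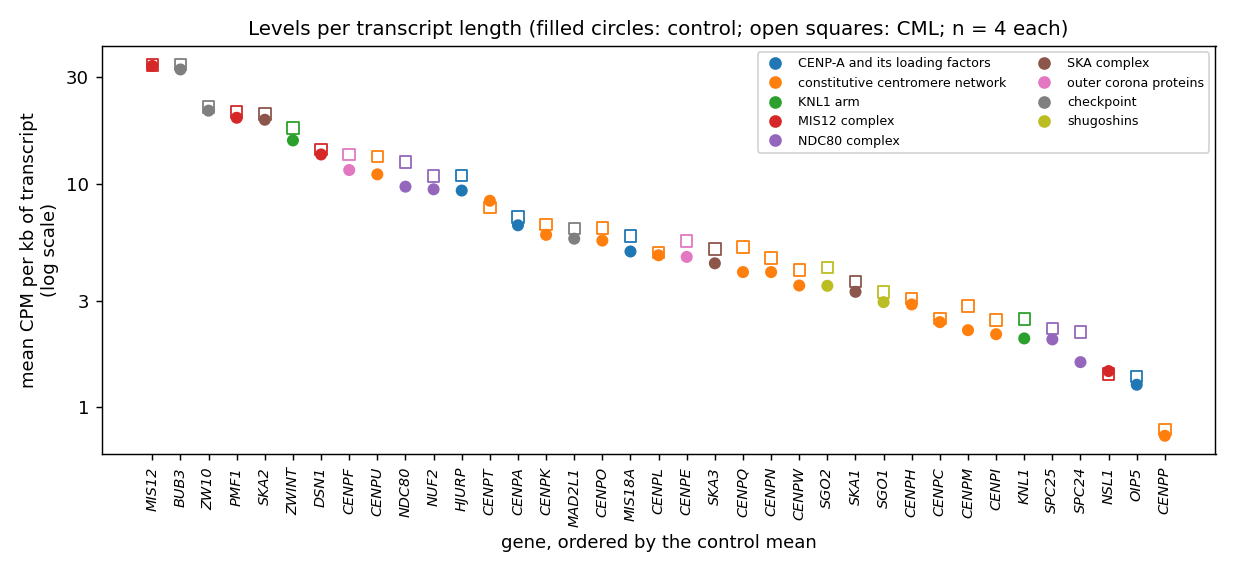
Mean CPM per kilobase of transcript (y axis, log scale) of the 37 genes, ordered by the control mean (x axis) and coloured by role. Filled circles are control means and open squares CML means (n = 4 each). MIS12 at 33.6 and BUB3 at 32.4 lie highest and CENPP at 0.745 lies lowest, and the squares lie above the circles in all genes but CENPT and NSL1.

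The members were also summarised in each library. The median deviation of the 37 genes from their control mean was -0.03, -0.02, -0.02 and 0.07 on the log2 scale in control replicates 1 to 4, and 0.15, 0.15, 0.14 and 0.17 in CML replicates 1 to 4. Control replicate 4 lay between the other controls and the CML libraries. Members above their control mean numbered 14, 16, 16 and 29 in the controls and 33, 32, 31 and 33 with CML. Over the expressed genes the same median stayed between -0.01 and 0.03. Without control replicate 4, 9 members passed the threshold (HJURP, CENPQ, CENPU, KNL1, NDC80, NUF2, CENPE, CENPF and BUB3), beside 3.89% of the expressed genes that rose. With any other library left out, the count was 1 or 3.

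**Figure D4:**
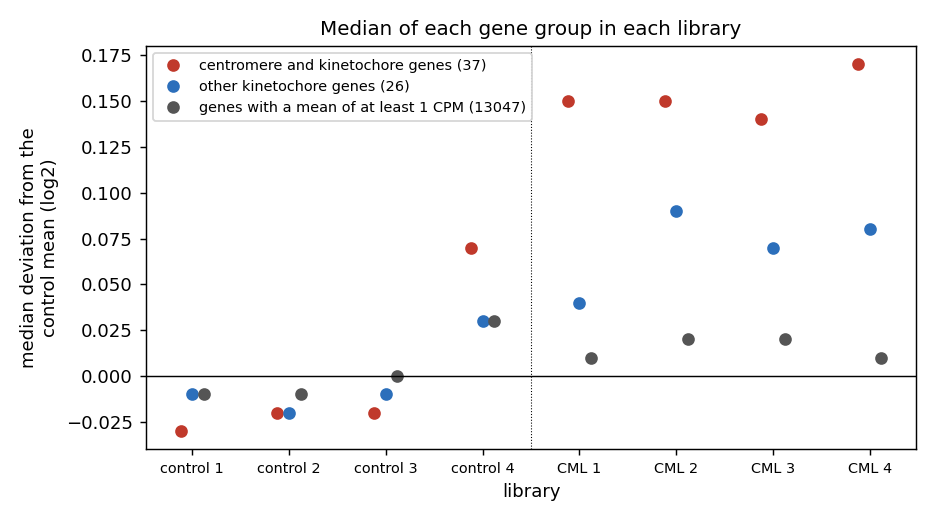
Median deviation from the control mean (y axis, log2) in each of the 8 libraries (x axis) for the 37 centromere and kinetochore genes, 26 other kinetochore genes and the 13047 expressed genes. For the 37 genes the CML libraries lie between 0.14 and 0.17, control replicate 4 at 0.07 and the other controls at or below -0.02.

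By the median, the members were poorer in G and C than the expressed genes. The median GC content of the members' transcripts was 41.06%, beside 47.86% for the expressed genes, and the median length 2706 bases, beside 3243 bases. Some members lay above 47.86%, among them CENPM at 59.7% and CENPT at 59%. The trend of each library with GC content and length was then taken out, over the 12978 expressed genes that have both values. After this, the median deviation of the members was -0.01 to 0.02 in the controls and 0.10 to 0.15 with CML, and control replicate 4 stood at 0.02. The median fold change then was 0.13, and 12 members rose and 0 fell (limma, adjusted p under 0.3), beside 4.24% of the expressed genes that rose. The like count without the removal is that over the 13047 expressed genes alone, where 5 members rose (HJURP, CENPQ, CENPU, NDC80 and CENPF), beside 0.866% of the expressed genes. The 12 were NDC80, CENPQ, CENPF, HJURP, CENPE, CENPU, KNL1, CENPO, SGO2, SPC24, ZWINT and NUF2. The adjusted p was 0.00106 for CENPF, 0.00386 for NDC80 and 0.0355 for HJURP (limma). Among the genes tested, 550 then rose and 325 fell, beside 113 and 28 of the expressed genes without the removal. Over all 17649 genes, 119 rose and 39 fell with the values as deposited, 46 and 27 with libraries centred on their median and 90 and 54 with quantile normalization.

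**Figure D5:**
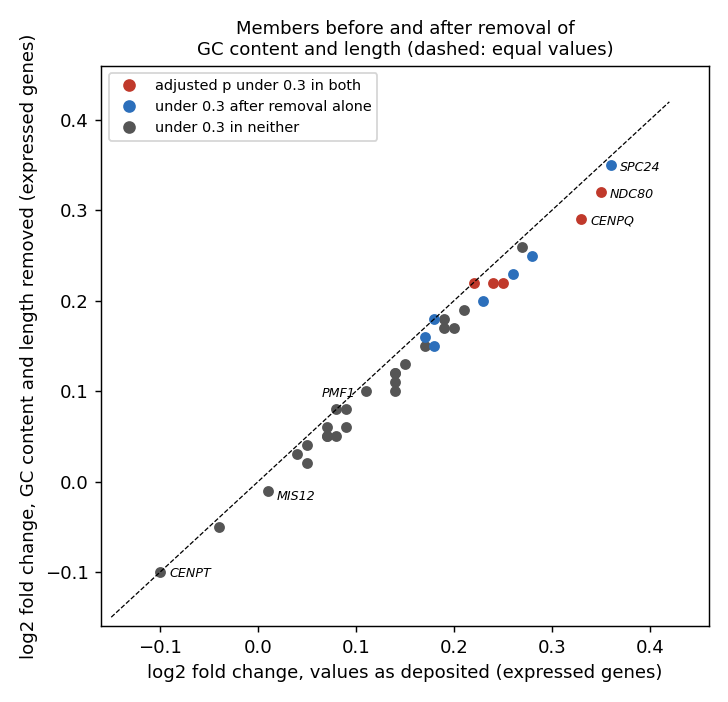
Log2 fold change of the 37 genes in fits over the expressed genes alone, with the values as deposited (x axis) and after the removal of GC content and length (y axis). The 5 red points passed an adjusted p of 0.3 in both fits, the 7 blue points after the removal alone and gray points in neither, and the dashed line marks equal values. SPC24, NDC80 and CENPQ lie highest in both and CENPT lowest.

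A list of 26 other genes of the kinetochore and its checkpoint was read beside the members. Of these 26, 22 had a higher mean with CML and 4 a lower one (CENPB, CENPS, CENPX and CLASP1), with a median log2 fold change of 0.07. BUB1 and TTK, 2 checkpoint kinases, rose. Of the expressed genes, 58.8% had a fold change above 0 and 0.828% rose. BUB1 went from 52.8 ± 1.9 to 62.8 ± 2.39 CPM (SD, n = 4 each; log2 fold change 0.25, limma adjusted p = 0.128) and TTK from 18.1 ± 1.18 to 22.8 ± 1.03 CPM (0.32, limma adjusted p = 0.179). In 5 of the 26 the groups did not overlap and 11 were higher at an unadjusted p under 0.05, where 0 were lower, beside 3.04% and 5.65% of the expressed genes. The next smallest p values belonged to AURKB, INCENP and PLK1, with log2 fold changes of 0.16, 0.21 and 0.19 and limma adjusted p of 0.369, 0.479 and 0.478. The difference between these genes and the members was not tested.

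The study's proliferation score holds 11 genes, among them NDC80 and NUF2. All 11 had a higher mean with CML and 7 rose, beside 0.828% of the expressed genes. Beside NDC80 these were UBE2C (log2 fold change 0.27), MKI67 (0.30), CCNB1 (0.28), TYMS (0.35), PTTG1 (0.20) and RRM2 (0.39), with limma adjusted p from 0.0856 to 0.278. The 9 that are no members summed to between 442 and 466 CPM in the control libraries and between 529 and 552 CPM in the CML libraries, 2 ranges that do not overlap. Their part in the members' values was not tested.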

How the data were processed

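RNA-Seq was analysed for 4 control and 4 CML libraries of MDA-MB-231 cells, grouped by their titles. The authors deposited CPM values, and the submitters' processing notes name edgeR and hg38. Per the study's methods for its tumors, such values are scaled by TMM factors. The aligner, the counter and the annotation of these libraries are not given in the sources used here, and the study's methods name a HiSeq, while the labels also name a NextSeq. Low values lay on steps of 1 read, but whole reads (tolerance 0.02) made up only 85.13% to 86.12% of nonzero values, so no count test was run.

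Rows with the same symbol were averaged (17681 rows, 17649 genes), and limma 3.58.1 in R 4.3.3 compared the groups on log2(CPM + 1), with a variance trend, no covariates and Benjamini-Hochberg adjustment over all genes. The script was tested on simulated data. For ratios between genes, an exact permutation test (2-sided) was used. Transcript length, GC content and exon overlaps came from the GENCODE annotation lifted to GRCh37, which gave no coordinates in the text. Positions and promoters came from RefSeq GRCh38.p14. Depth limits the members with few reads, and a gene at 1 CPM rests on about 1 divided by 0.0535 to 0.0622 reads. Plots were made in Python 3.11.15 with matplotlib 3.10.9.

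The members, lists and rules were chosen with earlier results of these data known. Values in every library are given for members with an adjusted p under 0.3, the 6 with the next smallest p and the highest and lowest level per transcript length, and those of CENPE were added after its values were seen. Of the other lists, genes with an adjusted p under 0.3 and the 5 with the smallest p are named, along with genes that overlap a member, of which 1 is not reported here. Alternatives tried were quantile normalization, centring of the libraries on their medians, a pseudocount of 0.1, a filter at 1 CPM, no averaging of rows, no variance trend, the replicate number as a block, removal of a per-library trend with GC content and length (over the expressed genes, with and without the block), and each library left out in turn.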

Additional observations from a re-analysis of the deposited data

Results flagged for a closer look

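In groups of 4 libraries, 6 values of 78 groups tested lay farther from the other 3 than Dixon's test allows, where chance gives about 3.9. Among the members, MIS18A was low in control replicate 3 (6.95 CPM, others 7.92 to 7.93), CENPO was high in CML replicate 3 (28.6 CPM, others 25.1 to 25.4), CENPU was high in CML replicate 4 (35.7 CPM, others 31.6 to 32.1) and MAD2L1 was high in CML replicate 2 (34.4 CPM, others 32.4 to 32.7). Control replicate 4 was flagged for its estimated reads (17729519, others 16559917 to 16690412) and for the median deviation of the 37 members from their control mean (0.0706 on the log2 scale, others -0.0262 to -0.0219).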

How the results depend on the processing

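Under all 17 alternatives the median log2 fold change of the members stayed above 0, with 34 or 35 of 37 higher, and was 0.13 to 0.18 with 1 library left out. The number of members past the threshold, 2 of 37, became 5 with a minimum mean of 1 CPM (with HJURP, CENPU and CENPF), 12 with that minimum and GC content and length removed, 1 with libraries centred on their median, and 1 to 9 with 1 library left out. It was 9 without control replicate 4, 3 without CML replicate 1 and 1 in the other 6 fits. Over all genes the count of 158 became 73 with libraries centred, 141 with the minimum mean, 875 with the minimum and GC content and length removed, and 20 (without CML replicate 2) to 690 (without control replicate 4) with 1 library left out. NDC80 passed under every alternative. The causes were not tested.

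No label ties same-numbered libraries to each other. Their deviations correlated at 0.199, -0.0303, -0.0645 and 0.334 for replicates 1 to 4 (median of different numbers -0.0105), so pairing was not shown for all 4 numbers and they were not treated as pairs. With the replicate block, 4 members (NDC80, CENPQ, HJURP and CENPU) and 189 genes passed, and with the block and GC content and length removed, 13 members and 928 genes. Under the block the adjusted p was 0.224 for NDC80, 0.29 for CENPQ and 0.263 for HJURP and CENPU (limma).

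Signs turned for members near 0. OIP5 was -0.02 without control replicate 4 and -0.01 without CML replicate 3, CENPH was -0.00 without CML replicate 1 and CENPL was -0.02 without CML replicate 2. MIS12 was -0.00 with libraries centred, -0.01 with GC content and length removed, -0.01 with the block added, -0.00 without control replicate 1 and -0.01 without CML replicate 4. With 1 library left out, OIP5 reached 0.18, CENPH 0.11, CENPL 0.09 and MIS12 0.03. Of 629 comparisons of a member with an alternative, 579 kept direction and side of the threshold. Reads limit OIP5, SPC25, CENPM, CENPW and SPC24 most.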
